A study of Oryza sativa Japonica Group with 15 samples.

Results

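The short arms of rice chromosomes 4 and 10 were described here in single-cell Hi-C data, which record pairs of DNA segments that were ligated to each other in the nucleus of 1 cell. The members were all 10 kb bins from 2 to 7.7 Mb of chromosome 4 and from 2 to 6.2 Mb of chromosome 10, which leaves out the outer 2 Mb of each arm and the 2 Mb next to the centromere. This gave 990 bins, 570 on chromosome 4 and 420 on chromosome 10, of 37272 bins in the genome (2.66%). The rule sets them by position alone. They were set against the 3280 bins of the long arms of the same chromosomes, cut in the same way, from 11.7 to 33.5 Mb of chromosome 4 and from 10.2 to 21.2 Mb of chromosome 10. The short arms then span 9.9 Mb and the long arms 32.8 Mb. The rule places the centromeres at 9.7 Mb on chromosome 4 and 8.2 Mb on chromosome 10. These positions were not tested on the build of the files, which is not given in the sources used here.

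All cells came from the japonica rice cultivar Dongjin, and each library was made from 1 cell. The 4 egg cells came from florets without pollination, the 4 sperm cells from stamens and the 3 unicellular zygotes from florets that had been pollinated 6 to 8 hours before. The 4 shoot cells came from seedlings, 12 days after germination. The series' design text counts 2 shoot cells, and all 4 were used, with a repeat that left out shoot cells 3 and 4. No plant, floret or seedling is named for any cell, so a cell type counted as 1 sample, the spread between cells is not a spread between plants, and cell types were not tested against each other.

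Heterochromatin is chromatin that stays condensed through the cell cycle. It is rich in retrotransposons, carries dense DNA methylation and holds few active genes. In rice the short arms of chromosomes 4 and 10 are well known cases in which it extends from the centromere over most of an arm, whereas on other chromosomes it lies mainly around the centromere. Cytologically, both arms stain darkly along much of their length. Contacts alone do not show whether a region is heterochromatic, so the name of these arms was not checked against these data.

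Each distinct combination of 2 restriction fragments in a cell counted as 1 contact, located at the fragment midpoints. Trans contacts join different chromosomes and cis contacts join positions of the same one. Trans contacts, and cis contacts of 20 kb or more, are called far. The 15 cells held 111099 read pairs, which came down to 28358 contacts, of which 5510 were far. Per cell there were 2236 to 17291 read pairs, 761 to 4576 contacts and 130 to 558 far contacts. Of 27090 distinct fragment pairs, 793 (2.93%) occurred in more than 1 cell. Shoot cells 3 and 4 shared 57 that no other cell had, and eggs 1 and 4 shared 47. Among far contacts, 16 of 181 with an end in the short arms (8.84%) recurred in another cell, against 104 of 964 in the long arms (10.8%). All intervals below are exact 95% intervals that cover counting error only, because read pairs amplified without molecular identifiers are not independent molecules.

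Summed over cells, the short arms had about as many contact ends per Mb as the long arms, but a smaller share of these ends was far. The equal density held for the sum only. In 10 of 15 cells, and in the mean ratio of 3 of the 4 cell types, the short arms had fewer ends per Mb. Summed over the 15 cells, the short arms had 1419 contact ends, or 143.3 per Mb, against 4694 ends, or 143.2 per Mb, in the long arms. Egg 3 held 256 of the 1419 short arm ends and sperm 1 held 271, so the sum leans on these cells. Of their short arm ends, 5.47% in egg 3 and 2.58% in sperm 1 were far. Far ends numbered 185 in the short arms, or 18.7 per Mb, against 1034 in the long arms, or 31.5 per Mb. Far ends thus made up 13.04% of the ends in the short arms and 22.03% in the long arms. A far end lay in 68 of the 990 short arm bins in at least 1 cell, which is 6.87% (interval 5.37% to 8.63%), against 311 of 3280 long arm bins, which is 9.48% (8.50% to 10.5%). Over all bins of the genome this share was 8.9%, so the interval of the short arms lay below the value of the whole genome and that of the long arms included it. Taken singly, the short arms of chromosome 4 (5.36% to 9.83%) and chromosome 10 (4.08% to 8.94%) had intervals that included it. Any contact at all was seen in 224 short arm bins (22.6%, interval 20.1% to 25.4%), against 911 long arm bins (27.8%, 26.2% to 29.3%) and 26.9% of all bins. Here too the interval of the short arms lay below the value of the genome, so the lower share of bins was not particular to far contacts. For the short arm of chromosome 10 alone (20.5% to 28.9%) the interval included that value.

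The cells differed widely in the number of far ends, and the direction of the difference was the same in 13 of 15. The 4 eggs had 2.22, 1.41, 1.41 and 0.606 far ends per Mb in the short arms, against 2.01, 3.81, 2.23 and 2.53 per Mb in the long arms. The 4 sperm had 0.707, 0.101, 3.94 and 0.202 per Mb in the short arms, against 2.23, 1.95, 1.40 and 0.702 per Mb in the long arms. Sperm 3 stood apart from the other sperm, with 39 far ends in its short arms where the others had 7, 1 and 2. The 3 zygotes had 0.303, 1.21 and 0.909 per Mb in the short arms, against 1.43, 2.84 and 1.43 per Mb in the long arms. The 4 shoot cells had 1.92, 1.01, 1.82 and 0.909 per Mb in the short arms, against 3.36, 2.04, 2.44 and 1.13 per Mb in the long arms. In zygotes and shoot cells every cell was lower in its short arms, while in eggs and sperm 1 cell of each went the other way (egg 1 and sperm 3).

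**Figure D1:**
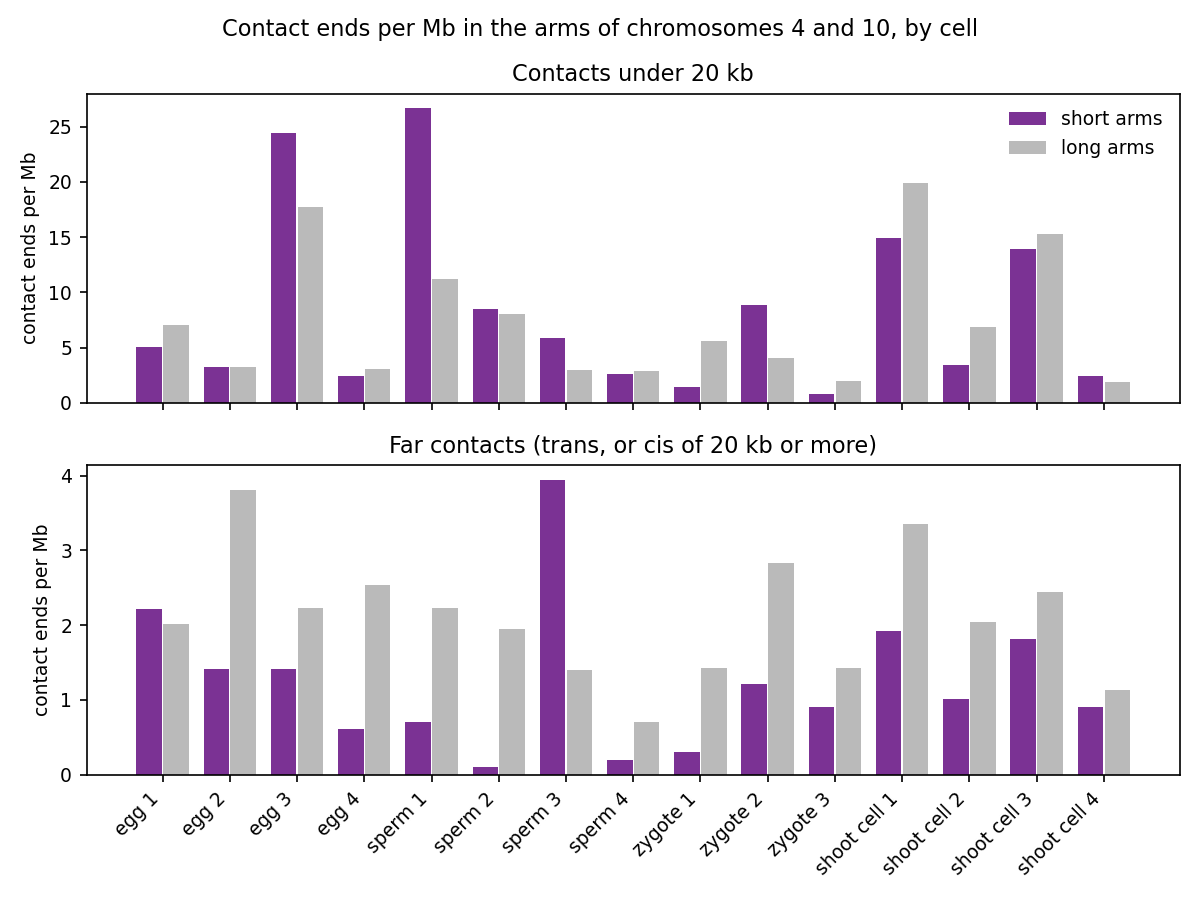
Contact ends per Mb (vertical axes) in the short arms (purple) and the long arms (grey) of chromosomes 4 and 10, for each of the 15 cells, with contacts under 20 kb above and far contacts below. Far ends per Mb were lower in the short arms in 13 of 15 cells, while the bars for contacts under 20 kb show no common order.

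Expressed as the ratio of far ends per Mb, short over long arms, eggs averaged 0.587 ± 0.382 (SD, n = 4 cells), sperm 0.866 ± 1.30 (n = 4), zygotes 0.424 ± 0.211 (n = 3) and shoot cells 0.654 ± 0.145 (n = 4). The mean of the 4 cell types was 0.633, and all 4 lay below 1. An exact two-sided sign-flip permutation test over the log2 ratios of the 4 cell types gave p = 0.125. This is the smallest value that 4 cell types allow, so the design could not reach the 0.05 threshold. Counting error alone put the interval of the ratio below 1 in 8 cells and above 1 in 1, sperm 3, at 2.81 (1.78 to 4.40). Without sperm 3 the sperm averaged 0.219 and the mean of the 4 types was 0.471. The ratio was 0.941 when only contacts seen in at least 2 read pairs were counted, and 0.836 without fragments that had more than 4 partners. In each of these 2 counts 3 of the 4 cell types were below 1.

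For all contacts there was no common direction. Eggs averaged a ratio of 0.825 ± 0.332 (SD, n = 4), sperm 1.48 ± 0.760 (n = 4), zygotes 0.737 ± 0.639 (n = 3) and shoot cells 0.805 ± 0.255 (n = 4). The mean of the 4 types was 0.962, with p = 0.625 in the same exact sign-flip permutation test. Single cells ran between 0.244 (zygote 1) and 2.23 (sperm 3), with 10 of 15 below 1. The interval lay below 1 in 5 cells (2 eggs, 1 zygote and 2 shoot cells) and above 1 in 3 (1 egg and 2 sperm). The zygote mean was 0.375 without zygote 2 and 0.983 without zygote 1. The 2 highest sperm values came from different kinds of contacts. Sperm 1 had 271 ends in its short arms, of which 7 were far, whereas sperm 3 had 97 ends, of which 39 were far. When bins with a contact were counted in each cell instead of ends, the sperm mean was 0.931 and the mean of the 4 types 0.799.

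**Figure D2:**
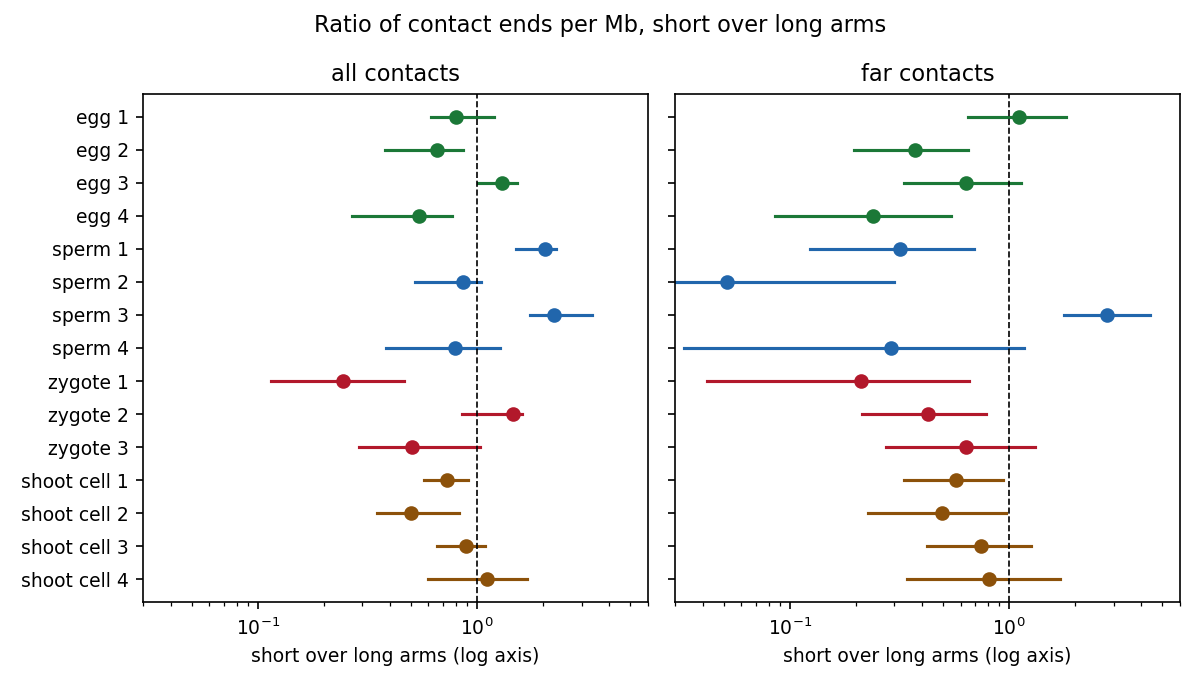
Ratio of contact ends per Mb, short over long arms (log axis), in each cell, for all contacts on the left and far contacts on the right, with exact 95% intervals as lines and cell types by colour. The dashed line marks 1. For far contacts 13 of 15 points lie left of it, with sperm 3 at 2.81 the farthest right.

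The 2 short arms did not share this pattern equally. In the short arm of chromosome 4 the ratio of far ends per Mb to its long arm averaged 0.533 over the 4 cell types (exact sign-flip permutation p = 0.125), with 13 of 15 cells below 1. In the short arm of chromosome 10 it averaged 0.840 (exact sign-flip permutation p = 0.375), with 11 of 15 cells below 1 and a sperm mean of 1.54 that held the 5.39 of sperm 3. The difference between the chromosomes was not tested. Among the 23 chromosome arms that keep an interior under the same margins, the short arm of chromosome 4 had the fewest far ends per Mb (14.7) and the lowest share of far ends among all its ends (9.86%). The long arm of chromosome 8 was nearly level with it, with 14.8 per Mb and 10.7%. The density of all ends in the short arm of chromosome 4, 149 per Mb, ranked 11th from the bottom. The short arm of chromosome 10 ranked 9th from the bottom in far ends per Mb (24.0), but had the lowest share of bins with a far end, 6.19%, against 11.5% in its own long arm, which had the highest share of all 23. Here too the long arm of chromosome 8 came next, with 6.70%. The short arm of chromosome 4 had 7.37% of bins with a far end, which ranked 3 of 23 from the bottom, against 8.48% in its long arm. In the short arm of chromosome 4 the outer side held 41 far ends and the side toward the centromere 43, in 21 bins each. In the short arm of chromosome 10 the counts were 50 and 51, in 13 bins each, but most of them lay in 2 windows of 500 kb with 38 and 34 far ends, 1 on each side.

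The length of contacted fragments and the read support of both kinds of arm were close. Contacted fragments per Mb were close on chromosome 4 but fewer in the short arm of chromosome 10. Contacted fragments had a median length of 297 bp in the short arms and 318 bp in the long arms. Each Mb held 76.4 distinct contacted fragments in the short arms and 81.8 in the long arms, summed over cells. On chromosome 10 the numbers were 74.5 and 89.0, and on chromosome 4 they were 77.7 and 78.2. Among the 23 arms the short arms of chromosomes 10 and 4 ranked 2 and 4 from the bottom in this number. A contact was supported by 3.75 read pairs on average in the short arms and 3.99 in the long arms. Among far contacts, 126 of 181 (69.6%) in the short arms and 647 of 964 (67.1%) in the long arms rested on a single read pair. How many cutting sites and how much uniquely mappable sequence each arm holds was not tested, and the deposited contacts do not tell a lower rate of far ligation from a lower rate of detection.

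**Figure D3:**
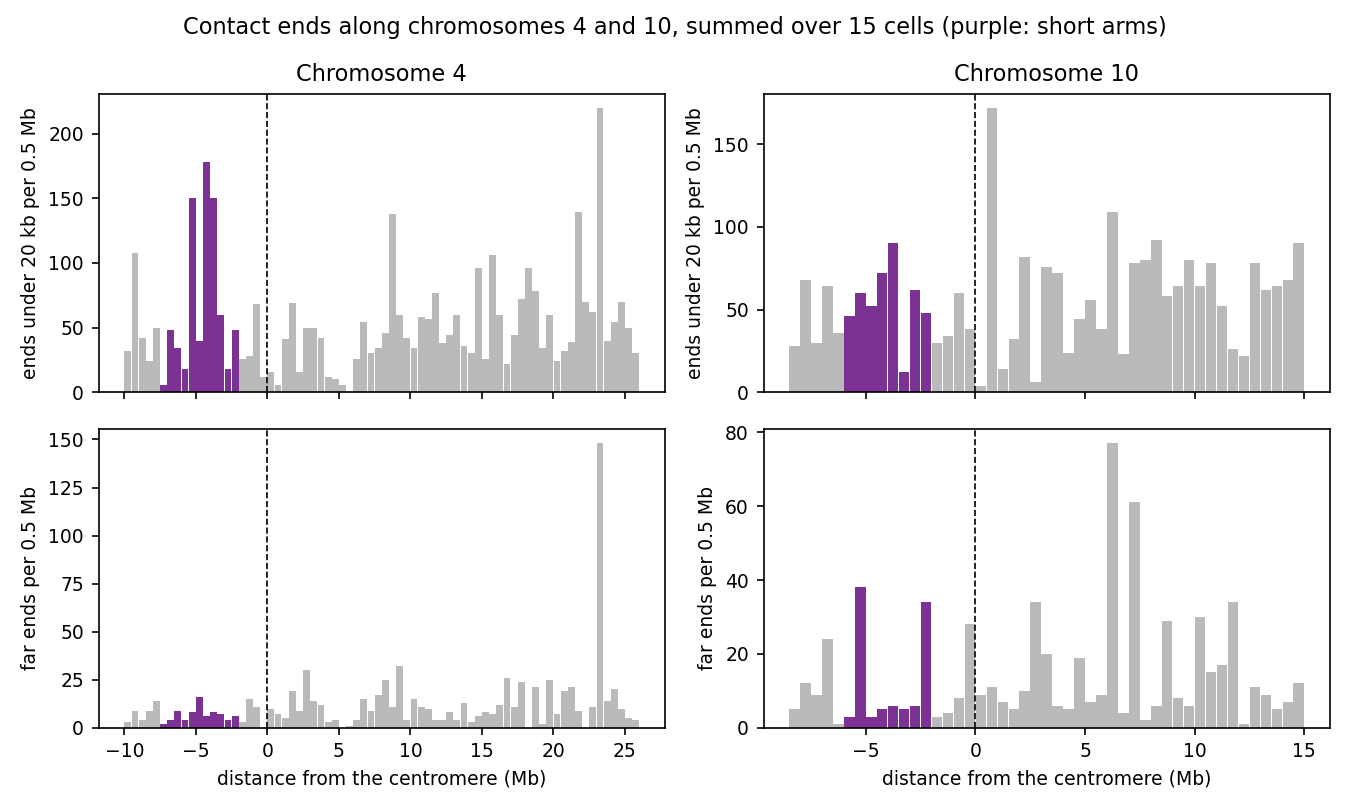
Contact ends summed over 15 cells in windows of 500 kb (vertical axes) against distance from the centromere in Mb (negative toward the end of the short arm), for chromosomes 4 and 10, with ends of contacts under 20 kb above and far ends below. Windows wholly within the short arms are purple and the dashed line is the centromere. Ends under 20 kb are found all along the short arms, whereas far ends are sparse along the short arm of chromosome 4 and gather in 2 windows of the short arm of chromosome 10.

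Few short arm bins were seen in far contacts of more than 1 cell, and 1 of them, on chromosome 10, recurred in 8 cells. Far ends in at least 2 cells were found in 4 of 990 short arm bins (0.404%, interval 0.110% to 1.03%), against 38 of 3280 long arm bins (1.16%, 0.821% to 1.59%) and 0.931% of all bins. The interval of the short arms included the share of all bins and overlapped that of the long arms. In at least 5 cells the counts were 2 short arm bins (0.202%) and 8 long arm bins (0.244%), against 0.255% of all bins, a share close to that of the genome. The bins described next are, by rule, the 3 in each arm with far contacts in the most cells, with ties ordered by the number of far contacts.

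The bin chr10:2750001-2760000 was the most recurrent of the short arms. It held 32 far contacts, all trans, from 7 fragments to 16 partner bins on 5 chromosomes. Eggs 1 and 2 had 9 each and egg 4 had 1. Zygotes 1, 2 and 3 had 2, 2 and 6. Shoot cells 1 and 2 had 2 and 1. It was found in 3 of 4 eggs, in all 3 zygotes and in 2 of 4 shoot cells, and no sperm held a far contact of it. In 6 cells it met the same partner bin, chr1:28380001-28390000, in 7 contacts with 20 read pairs. Eggs 1 and 2, the 3 zygotes and shoot cell 1 shared this pair. The chromosome 1 fragment was the same each time, chr1:28381514-28382385. It was joined to chr10:2755545-2756615 in egg 1, zygotes 2 and 3 and shoot cell 1, and to chr10:2756663-2756936 in egg 2 and zygotes 1 and 3. A second partner on chromosome 1, chr1:33580001-33590000, was met once each in egg 1, zygotes 1 and 3 and shoot cell 2. Whether both loci lie in Dongjin where the build of the files places them was not tested, so these repeated joins are not shown to be contacts between separate chromosomes.

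The other recurrent bin lay near the outer limit of the short arm of chromosome 4. The bin chr4:2080001-2090000 had 8 far contacts in 6 cells, with 1 in egg 1, 2 in egg 4, 1 in sperm 4, 1 each in zygotes 1 and 2 and 2 in zygote 3. It met chr12:17340001-17350000 in egg 4 and in zygotes 1 and 2, each with 1 read pair. The bin chr4:5170001-5180000 was seen in 2 cells with 7 contacts, all of them to chr9:15540001-15550000. Egg 1 held 6 of these on 75 read pairs and egg 4 held 1 on 1 read pair. These are the eggs that share many fragment pairs, so the second observation is not shown to be independent of the first. The third bin of this arm, chr4:3310001-3320000, was seen in egg 1 alone, with 4 contacts.

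Of the remaining named bins on chromosome 10, chr10:4840001-4850000 had 2 contacts in egg 2 and 1 in shoot cell 3, each with another bin of chromosome 1. The bin chr10:5720001-5730000 was seen in sperm 3 alone, where it held 22 far contacts. All 22 came from 1 fragment of 621 bp, chr10:5728859-5729479, joined to 21 partner bins on 10 chromosomes. Sperm are haploid, and 1 copy of a fragment can be ligated directly once at either end. Whether all these partners were ligated directly, and why 1 fragment had so many, was not tested. Together with the next bin, this spot held 32 of the 39 far ends in the short arms of sperm 3, from 2 fragments, with 24 partner bins, and 25 of these contacts rested on 1 read pair. Outside both bins, sperm 3 had 7 far ends in its short arms.

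For comparison, the most recurrent bins of the long arms were seen in more cells. The bin chr4:32880001-32890000 had 109 far contacts in 12 cells and chr10:14530001-14540000 had 41 in 11 cells. A single bin could also hold much of what 1 cell contributed to the short arms. The fullest bin held 9 of 22 short arm far ends in egg 1, 9 of 14 in egg 2, 22 of 39 in sperm 3 and 6 of 9 in zygote 3. When bins with a far contact were counted in each cell instead of ends, the mean ratio of the 4 cell types was 0.713.

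The fragments with the most partners also differed between the 2 short arms. On chromosome 4 they were chr4:5818511-5818978 with 10 partners in egg 3, chr4:5620191-5620541 with 9 partners in sperm 1, and chr4:5500305-5502465 with 9 partners in 2 cells. None of these partners was far. On chromosome 10 the leading fragment was the one of sperm 3 with 22 far partners. It was followed by the 2 fragments of the 2.75 Mb bin, with 19 partners of which 8 were far, and 15 of which 12 were far, each in 7 cells. Egg 2 held 5 of the 19. Eggs, like sperm, are haploid, and fragments in egg 2, egg 3 and sperm 1 also had more partners than 1 copy can be ligated to directly. Whether these partners were ligated directly, and how many copies each cell held, was not tested.

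Summed over cells, the short arms held as many cis contacts per Mb under 1 kb as the long arms, and few at domain range. Of contacts with both ends in the same arm, those under 1 kb numbered 446 in the short arms (45.1 per Mb) and 1393 in the long arms (42.5 per Mb), a ratio of 1.06 (0.951 to 1.18). The cell types differed in direction, with ratios of 1.42 (1.16 to 1.74) for sperm, 1.12 for eggs, 0.957 for zygotes and 0.8295 (0.683 to 1.00) for shoot cells, and on the difference per Mb the exact sign-flip permutation test gave p = 0.75. Those of 1 to 20 kb numbered 171 (17.3 per Mb) and 437 (13.3 per Mb), a ratio of 1.30 (1.08 to 1.55). From 20 to 200 kb there were 0 in the short arms and 17 in the long arms. From 200 kb to 2 Mb there were 4 and 18, and beyond 2 Mb 0 and 14.

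The surplus between 1 and 20 kb was not shared by the cell types. Sperm had a ratio of 3.03 (2.18 to 4.19), eggs 1.18 (0.822 to 1.67), zygotes 0.946 (0.507 to 1.67) and shoot cells 0.670 (0.452 to 0.968). On the difference per Mb the exact sign-flip permutation test over the 4 types gave p = 0.75. Single cells carried these ratios. Without sperm 1, which had 52 of the 75 contacts of sperm, the ratio was 1.52 (0.887 to 2.54). It was 0.404 in eggs without egg 3, 0.261 in zygotes without zygote 2 and 1.93 without zygote 1.

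Contacts of 20 kb to 2 Mb, the range of domains and loops, had lower counts per Mb in the short arms in all 4 cell types, but in none beyond counting error. Eggs had 0 in the short arms and 7 in the long arms, sperm 1 and 10, zygotes 0 and 3, and shoot cells 3 and 15. The interval of the ratio included 1 in each type, with an upper bound of 2.30 for eggs, 2.33 for sperm, 8.01 for zygotes and 2.34 for shoot cells. Summed over cells this was 0.404 per Mb (0.110 to 1.03) in the short arms, against 1.07 per Mb (0.744 to 1.49) in the long arms, a ratio of 0.378 (0.0977 to 1.06). The mean of the 4 cell types' ratios was 0.248, and the exact sign-flip permutation test on the differences per Mb gave p = 0.125, the smallest it allows. The mean ratio was 0.0828 without shoot cell 3, 0.497 without shoot cell 2 and 0.166 without sperm 1. With contacts of at least 2 read pairs it was 0.920, and 1 of the 3 cell types that gave a ratio was below 1, so the common direction was lost. On chromosome 4 alone, and without shoot cell 1 or 2, 3 of 4 types were below 1. An arm that ends sooner has fewer pairs of positions at these distances, and for arms of these lengths the short arms offer 0.848 times as many per Mb. Few contacts at this range were also seen in other arms. Among the 23 arms the short arm of chromosome 10 ranked 3 from the bottom with 0.238 per Mb and that of chromosome 4 ranked 6 with 0.526 per Mb, while the short arm of chromosome 2 had the lowest value, 0.208 per Mb.

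The 4 domain-range contacts of the short arms came from 2 cells and 2 pairs of bins. In sperm 1, positions 2.17 and 2.89 Mb of chromosome 10, 714 kb apart, were joined by 6 read pairs. In shoot cell 3, 3 neighbouring fragments at 4.71 Mb of chromosome 4 were joined to 1 fragment at 4.93 Mb, 218 kb away, by 1, 2 and 5 read pairs. The 35 contacts of the long arms fell into 24 pairs of bins. Measured against short-range contacts of the same arms, 2.29% (0.626% to 5.75%) of contacts of 1 kb to 2 Mb spanned at least 20 kb in the short arms, against 7.42% (5.22% to 10.2%) in the long arms. The mean difference of the 4 types was -5.00 percentage points (exact sign-flip permutation p = 0.125), -7.88 without shoot cell 3 and -3.10 without sperm 1. With contacts of at least 2 read pairs it was -1.24 points (exact sign-flip permutation p = 0.75), and 2 of 4 types were below 0. In shoot cells the shares were 7.89% and 7.98%, so this share was close to equal there.

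**Figure D4:**
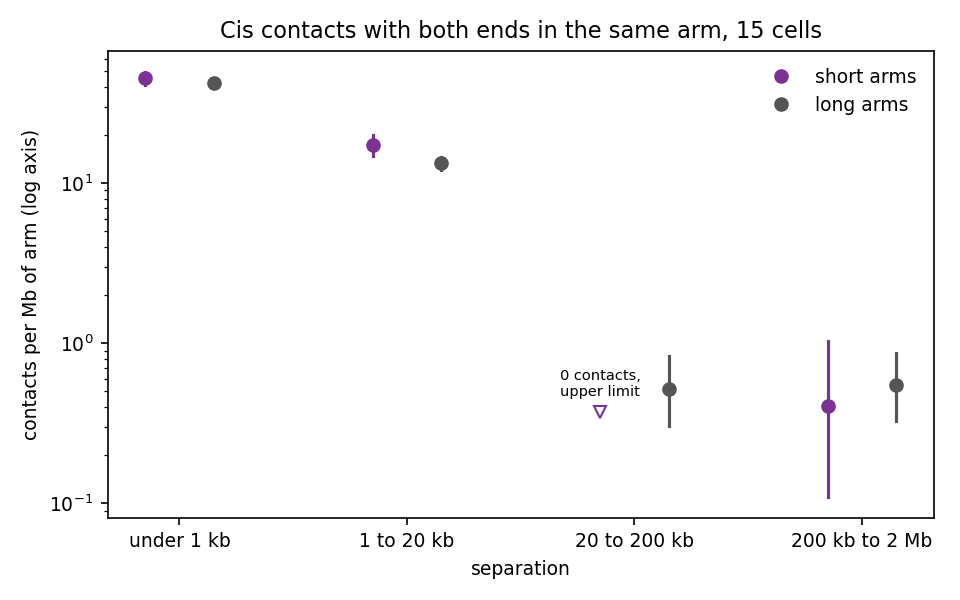
Cis contacts with both ends in the same arm, per Mb of arm (log axis), by separation class, summed over 15 cells, with exact 95% Poisson intervals; purple is the short arms and grey the long arms. The open triangle is the upper interval bound for 0 contacts of the short arms between 20 and 200 kb, where the long arms had 17.

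Far contacts of the short arms were mostly trans, as in the long arms. Of 181 far contacts in the short arms, 159 were trans (87.8%, interval 82.2% to 92.2%), against 890 of 964 in the long arms (92.3%, 90.5% to 93.9%). In eggs 56 of 56 were trans in the short arms, an interval of 93.6% to 100%, against 95.5% in the long arms. In zygotes 24 of 24 were trans, an interval of 85.8% to 100%, against 95.5%. Sperm had 85.4% in the short arms and 88.9% in the long arms. Shoot cells had 71.7% (57.7% to 83.2%) in the short arms and 88.7% (84.3% to 92.3%) in the long arms. This gap of -17.0 points was -5.19 with 1 contact per pair of bins, -9.54 without shoot cell 4, -25.5 without shoot cell 2 and -33.6 with contacts of at least 2 read pairs. The differences pointed both ways, with a mean of -2.87 percentage points (exact sign-flip permutation p = 0.875), -5.00 without shoot cell 2, -0.996 without shoot cell 4 and 0.889 when contacts were merged to 1 per pair of bins.

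The 22 far cis contacts of the short arms came from 5 cells, sperm 1 and 3 and shoot cells 1, 3 and 4, and joined 11 pairs of bins. Of these contacts, 9 crossed the centromere to the long arm of the same chromosome, 7 reached the outer 2 Mb of the same arm, 4 stayed within the arm and 2 reached the 2 Mb next to the centromere. In shoot cell 4, 5 contacts joined 4.24 Mb of chromosome 10 to 18.7 Mb on its long arm, 14.5 Mb away, with 1 to 13 read pairs each. In shoot cell 1, 2 contacts joined 4.22 Mb of chromosome 4 to 17.4 Mb, 13.2 Mb away. In the long arms 74 far cis contacts came from 14 cells and joined 53 pairs of bins, of which 49 contacts stayed within the arm and 17 crossed the centromere.

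The 2 short arms were not seen in contact with each other. There were 0 contacts between them in the 15 cells, where 0.666 were expected from the trans ends of both arms in each cell. A count of 0 allows up to 3.69, so neither avoidance nor attraction was detectable at this depth. The short arm of chromosome 4 met the long arm of chromosome 10 in 3 contacts, 1 each in shoot cells 1, 2 and 3, with 3.20 expected. The short arm of chromosome 10 met the long arm of chromosome 4 in 5 contacts, 3 in egg 2 and 2 in sperm 3, with 5.83 expected. The long arms met each other in 21 contacts, with 24.3 expected. Each of these counts lay within its counting interval of the number expected.

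Regions near centromeres made up a smaller share of the partners of the short arms than of the long arms, with intervals that just overlap. Within 2 Mb of a centromere lay 20 of 159 partners of the short arms (12.6%, interval 7.86% to 18.8%), against 187 of 911 of the long arms (20.5%, 17.9% to 23.3%). Relative to the trans ends of each cell, this was 0.738 times the expected number (0.451 to 1.14) for the short arms and 1.12 times (0.965 to 1.29) for the long arms, and both intervals include 1. For the short arms eggs had a value of 0.713 (8 contacts), sperm 1.07 (5), zygotes 0.394 (2) and shoot cells 0.815 (5). For the long arms it was 1.03, 1.26, 1.17 and 1.15 in the same order of cell types. With single cells left out the share ran between 11.6% and 13.9% in the short arms and between 19.2% and 21.5% in the long arms. The difference was not tested otherwise. The 159 partners of the short arms were not spread evenly over these arms. The bin at 2.75 Mb of chromosome 10 gave 32 of them. Sperm 3 gave 34 of the 41 of sperm, and 2 fragments held 32 of its 39 far ends. The intervals treat the partners as independent and do not allow for this, here and for the classes below.

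For the other classes of partner, the intervals of the short arms all included the expected number. The outer 2 Mb of chromosomes took 10.7% of short arm partners, 0.946 times the expected number, against 9.55% and 0.945 times in the long arms. Other interior arms took 76.7% of short arm partners, 1.07 times the expected number, against 69.9% and 0.977 times in the long arms. Recurrent bins, those in which 5 or more cells had a far end, took 21.4% of short arm partners, 0.977 times the expected number (0.677 to 1.37). In the long arms they took 30.7%, 1.17 times the expected number, with an interval of 1.04 to 1.31 that lies above 1. This value was 1.26 on chromosome 4 and 1.00 on chromosome 10. By cell type only the interval of eggs (1.09 to 1.51) lay above 1, and shoot cells had 0.874. Recurrent bins were defined from these same contacts, so a pair of bins that repeats in 5 or more cells makes both recurrent. Whether the long arms exceed the expected number apart from such pairs was not tested.

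**Figure D5:**
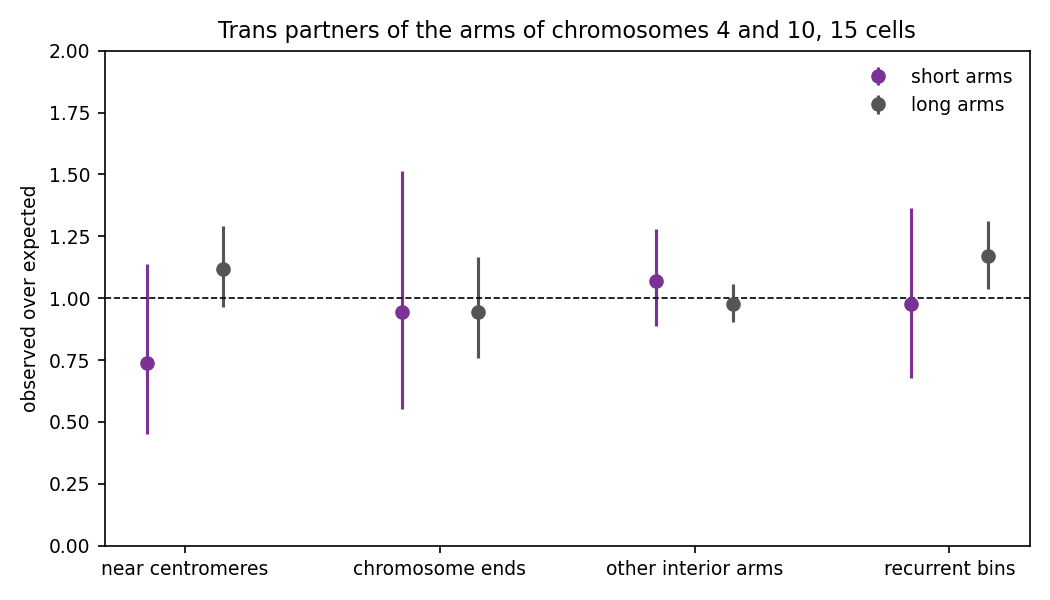
Trans partners of the short arms (purple) and long arms (grey), as the observed number over the number expected from the trans ends of each cell (vertical axis), with exact 95% intervals, summed over 15 cells. The dashed line marks 1. Near centromeres the short arms lie at 0.738 and the long arms at 1.12, and both intervals include 1.

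By partner chromosome, the short arm of chromosome 10 met chromosome 1 most. There were 26 contacts in 11 cells where 10.3 were expected, 2.52 times as many (1.64 to 3.69). The bin at 2.75 Mb, whose place in Dongjin was not tested, gave 18 of the 26. Outside it there were 8 contacts with 5.54 expected, 1.44 times as many (0.624 to 2.85). The short arm of chromosome 4 met chromosome 12 in 19 contacts from 10 cells, 1.71 times the expected 11.1 (1.03 to 2.67). Without the bin at 2.08 Mb this was 14 contacts with 9.26 expected, 1.51 times as many (0.826 to 2.54). Its 11 contacts with chromosome 9, where 5.98 were expected, held the 7 of the bin at 5.17 Mb, and outside that bin 4 were seen with 5.31 expected. Outside these bins the counts of all 3 pairs lay within counting error of the numbers expected. The 3 pairs were chosen from 22 pairs of an arm and a chromosome after their values were seen.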

How the data were processed

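Per the labels' protocols, single cells were fixed in formaldehyde, digested with DpnII and religated. The DNA of the whole cell was then amplified, sonicated and made into a sequencing library. Each line of the deposited files holds 1 read pair, with the chromosome, read position, restriction fragment and strand of both ends. They are positions and identifiers, not a normalised value. Which software aligned the reads and called contacts, and on which build, is not given in the sources used here. A small file of chain letters per chromosome and a gene table of a different assembly were left out, so no genes are named and no sequences are printed.

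Read pairs were reduced to distinct fragment pairs per cell, and ends were assigned to arms by fragment midpoint. Coverage was the number of contact ends per Mb, short over long arm, in each cell and averaged within a cell type. Shares and contacts by separation were summed over the cells of a type. The 4 cell types' values were tested with an exact two-sided sign-flip permutation test over 16 sign patterns. Coverage ratios entered this test as log2 values, and differences per Mb and in percentage points as they were. Intervals are Clopper-Pearson for shares and ratios (over contacts for all contacts, over ends for far contacts) and Poisson for counts. Expected trans numbers came from the shares of trans ends in the same cell. Named bins were the 3 of each arm with far contacts in the most cells, ties by contacts, then position, and named fragments the 3 of each short arm with the most partners. Only the ratio of far ends was tested against known values, on simulated contacts. These were placed at random, with more contacts per cell than here and without fragments of many partners. The arms, lists and tests were chosen with earlier results of these data known. Alternatives were 1 contact per pair of bins, fragments of at most 4 partners, contacts of at least 2 read pairs, no recurrent bins, a 3 Mb margin, each chromosome alone, a far limit of 100 kb, scaling per contacted fragment, sums or means over cells, and omitting single cells, or shoot cells 3 and 4 together. Leaving out shared contacts and counting bins were added after seeing the data. Python 3.11.15, numpy 2.4.6, pandas 2.3.3, scipy 1.17.1 and matplotlib 3.10.9 were used.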

Additional observations from a re-analysis of the deposited data

Results flagged for a closer look

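Sperm 3 lay far from the other sperm in 2 measures, by the gap to its nearest neighbour relative to the range of the 4 sperm (Dixon's test at the 95% level). Its ratio of far ends per Mb, short over long arms, was 2.81, where the other sperm had 0.0517 to 0.318. Its far ends in the short arms numbered 3.94 per Mb, where the others had 0.101 to 0.707. In all, 15 groups of values were examined in this way, and chance alone marks about 1 group in 20. The 3 zygotes are too few for the rule. The 2 neighbouring bins at chr10:5720001-5740000 held 32 of the 39 far ends behind both values.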

How the results depend on the processing

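Of the alternative values of the 6 main results, 150 counted as unmoved and 4 as moved. The limit was the spread between cell types, except for contacts between the 2 short arms, where it was the counting interval. All 24 alternatives of that result were 0 and are among the 150, but they could not have moved. For the other results the limit was wide. The mean ratio of contacts of 20 kb to 2 Mb still counted as unmoved at 0.0460, as a mean over cells. That mean left out cells with 0 such contacts in the long arms, among them shoot cell 3. The mean ratio of far ends was 0.836 without fragments of more than 4 partners, 0.941 with contacts of at least 2 read pairs and 0.840 on chromosome 10 alone. The mean ratio of contacts of 20 kb to 2 Mb was 0.920 with contacts of at least 2 read pairs, where 1 of 3 cell types was below 1. The difference in the share of contacts of at least 20 kb was then -1.24 points, with 2 of 4 types below 0. The far ratio stayed below 1 in 28 of 28 alternatives, and in all 4 cell types in 21 of them. In 7 alternatives the sperm mean of this ratio was above 1, the highest being 1.59 with contacts of at least 2 read pairs. The mean ratio for all contacts, 0.962, lay above 1 in 9 alternatives, up to 1.14 with a 3 Mb margin. The difference in trans share was 0.889 points with 1 contact per pair of bins. With single cells left out, the mean ratio of far ends ranged between 0.471 (without sperm 3) and 0.701. The ratio for all contacts ranged between 0.872 and 1.02, the difference in trans share between -5.00 and -0.996 points, the ratio of contacts of 20 kb to 2 Mb between 0.0828 and 0.497, and the difference in the share of contacts of at least 20 kb between -7.88 and -3.10 points. Without shoot cells 3 and 4 together, the mean ratio was 0.603 for far ends, 0.914 for all contacts and 0.0828 for contacts of 20 kb to 2 Mb. The difference in trans share was then -0.166 points and that in the share of contacts of at least 20 kb -8.00 points. The short arms were joined to each other in 0 contacts under every alternative, none of which could add contacts. The causes were not tested. No paired analysis was possible because cell numbers only name the cells, and both kinds of arm were already read in the same cell. Scaling by the DpnII fragments of the genome was not run, since no genome of this build was used here. Depth limits the domain-range contacts, 4 in the short arms and 35 in the long arms, and the contacts between the short arms, 0 with 0.666 expected.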
